A study of Mus musculus with 18 samples.

Results

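A total of 378 bins of 200 bp, of 12361722 that tile chromosomes 1 to 19 of the mouse genome (mm9), gained C/EBPα late in the conversion of pre-B cells into macrophages. They were selected on the C/EBPα reads themselves. Each held at least 10 scaled reads (reads per 10000000 reads of the library) at both 24 and 48 hr post-induction (hpi) and at most 4 at each of 0 hpi, 10, 30 and 60 min and 3 hpi, so that the rise between these 7 libraries is how they were chosen and not a finding. Of the 9348 bins that reached 10 at both late time points, they made up 4.04%. Bins that touched were joined, which gave 354 sites (330 of 1 bin and 24 of 2 bins), and a site was described by its bin with the higher C/EBPα at the lower of the late time points. The C/EBPα library of 12 hpi, the libraries of C/EBPβ and PU.1, the DNA sequence and the position in the genome took no part in the selection.

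The study followed C10 cells, a HAFTL-derived pre-B line that carries a C/EBPα-estrogen receptor fusion with a GFP marker, after the fusion was released into the nucleus with β-estradiol (β-Est, 100 nM in the sample labels). IL-3 and CSF-1 were present at 10 nM. Control cells received 0.1% ethanol, and the labels do not say whether the 0 hpi libraries came from these. ChIP-seq was done for C/EBPα at 8 time points (0 hpi, 10, 30 and 60 min, 3, 12, 24 and 48 hpi) and for C/EBPβ and PU.1 at 5 each (0, 3, 12, 24 and 48 hpi), each time point being a single library. The line is a single one, and all 18 libraries come from cells with the transgene. Whether C/EBPα reads came from the fusion or from the protein of the cell's own gene cannot be told apart in these libraries. The paper puts independence from the transgene at 24 hpi, ahead of expression of the cell's own gene.

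Replicate libraries were not among the files, so no test between libraries was made. The 95% intervals given below are exact Poisson for reads, which cover counting error only, and exact Clopper-Pearson for shares. Those for shares treat bins as independent draws, although 24 sites are 2 touching bins. They do not carry the counting error of the reads in a bin near the threshold. Neither kind covers the spread between libraries. For a share of 0 the limit given is that of 3 counts of the total. Libraries held 2903580 to 24917810 reads, and a value of 10 stood for 25, 14 and 20 reads at 10, 30 and 60 min, 12 reads in the C/EBPα library of 3 hpi, 8 reads in those of 24 and 48 hpi, and as few as 6 at 12 hpi, where its interval ran from 3.69 to 21.9. For C/EBPβ 10 scaled reads stood for 3 to 6 reads, and for PU.1 for 7 to 12. The 10, 30 and 60 min libraries had 50-base reads from another sequencer (HiSeq2000), so time and sequencer cannot be told apart there. In a bulk library, binding in more cells and stronger binding per cell give the same reads.

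C/EBPα and C/EBPβ are basic leucine zipper factors that bind the same kind of DNA site as dimers and drive myeloid genes. PU.1 is an ETS factor that opens myeloid and B cell enhancers, binds sites with a GGAA core and often sits beside C/EBP factors in macrophages. AP-1, made of Fos and Jun proteins, is a further leucine zipper factor of macrophage enhancers, and EBF1 is a determinant of the B lineage.

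The sequences of 7 sites show the features that the results below turn on. The first 5 are those named sites with the C/EBP consensus TTGCNNAA that held the most C/EBPβ at 48 hpi. The last 2 are the sites without this consensus that had the highest C/EBPα, by the lower of the values at 24 and 48 hpi. All are the plus strand of mm9, 5′ to 3′, and capitals mark matches on either strand to the C/EBP consensus and, where present, to the AP-1 word TGACTCA.
Site near Sipa1l2, chr8:127940201-127940400: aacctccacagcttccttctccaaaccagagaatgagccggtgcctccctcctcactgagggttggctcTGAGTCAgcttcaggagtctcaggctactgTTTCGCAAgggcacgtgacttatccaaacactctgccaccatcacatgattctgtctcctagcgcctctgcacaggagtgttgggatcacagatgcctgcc
Site near B230120H23Rik, chr2:72099001-72099200: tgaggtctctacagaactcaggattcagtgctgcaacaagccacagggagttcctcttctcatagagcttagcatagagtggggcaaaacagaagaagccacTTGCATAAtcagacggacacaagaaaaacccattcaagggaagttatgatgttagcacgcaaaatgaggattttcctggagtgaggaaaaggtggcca
Site in Ninj2, chr6:120095601-120095800: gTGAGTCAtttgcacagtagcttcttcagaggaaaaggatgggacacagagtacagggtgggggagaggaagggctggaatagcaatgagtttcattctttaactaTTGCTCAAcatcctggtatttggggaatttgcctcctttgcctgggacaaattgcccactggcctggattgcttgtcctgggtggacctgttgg
Site in Gtf2h3, chr5:125032601-125032800: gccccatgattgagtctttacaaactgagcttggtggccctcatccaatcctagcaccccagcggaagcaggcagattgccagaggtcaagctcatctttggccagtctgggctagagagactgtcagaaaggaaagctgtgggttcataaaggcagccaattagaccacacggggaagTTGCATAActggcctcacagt
Site in Ptpre, chr7:142836201-142836400: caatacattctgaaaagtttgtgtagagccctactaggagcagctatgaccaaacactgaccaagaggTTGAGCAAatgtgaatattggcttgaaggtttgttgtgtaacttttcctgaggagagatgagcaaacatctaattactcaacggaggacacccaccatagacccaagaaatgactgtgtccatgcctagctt
Site in Cx3cr1, chr9:119967801-119968000: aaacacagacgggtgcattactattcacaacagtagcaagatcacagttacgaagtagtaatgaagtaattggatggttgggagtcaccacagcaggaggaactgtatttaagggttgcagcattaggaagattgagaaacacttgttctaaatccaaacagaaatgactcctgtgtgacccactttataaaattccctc
Site in Cdh1, chr8:109136201-109136400: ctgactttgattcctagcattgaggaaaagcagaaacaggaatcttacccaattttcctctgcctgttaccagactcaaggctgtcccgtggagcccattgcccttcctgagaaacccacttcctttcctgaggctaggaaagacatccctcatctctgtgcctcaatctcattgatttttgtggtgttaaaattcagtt

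In the Sipa1l2 bin the C/EBP match covered bases 100 to 107 and an AP-1 match bases 70 to 76. The Ninj2 bin likewise held both, with the AP-1 match at bases 2 to 8 and the C/EBP match at bases 107 to 114. The C/EBP match lay at bases 103 to 110 near B230120H23Rik, at 180 to 187 in Gtf2h3 and at 69 to 76 in Ptpre. The bins in Cx3cr1 and Cdh1, both among the 3 sites with the most C/EBPα, held no match to the C/EBP, AP-1 or PU.1 words.

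Most late values lay near the threshold. At the 378 bins the median C/EBPα value was 1.13 scaled reads at 0 hpi, 1.20 at 10 min, 1.54 at 30 min, 1.54 at 60 min and 2.70 at 3 hpi, then 13.2 at 24 hpi and 13.8 at 48 hpi. The average bin of the genome held 0.789. The lower of the late values had a median of 11.9 and reached 60.6, and 39 bins had 20 or more at both. A total of 138 members lay just inside the late threshold, with a lower value from 10 to under 11, while 94 bins with 9 to under 10 lay just outside. On the early side 199 members had a highest early value over 3, and 255 late-bound bins lay just outside with values over 4 and up to 5. Reads of both strands were present in 375 bins at 24 hpi and in 377 at 48 hpi, and 187 bins were higher at 48 than at 24 hpi, so neither late library was the higher one throughout.

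The selection rested on the libraries of 3, 24 and 48 hpi. Leaving out that of 3 hpi gave 1167 bins, leaving out that of 24 hpi gave 1779 and leaving out that of 48 hpi gave 1776. Without the 3 libraries from the other sequencer 509 bins passed. A late threshold of 15 left 95 bins and an early threshold of 2 left 41. An early bin of 10 or more lay next to 28 members and within 1000 bp of 45 (11.9%), and the other 333 had none.

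**Figure D1:**
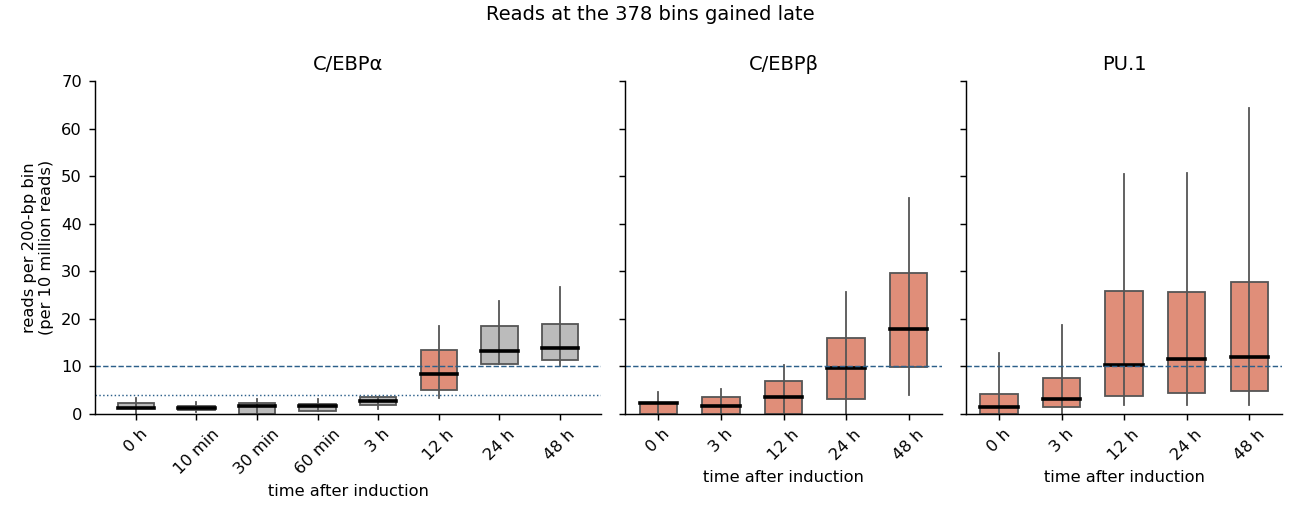
Scaled reads per 200-bp bin at the 378 bins gained late, by time after induction, for C/EBPα, C/EBPβ and PU.1. Boxes span the 25th to 75th percentile with the median as a line, whiskers the 10th to 90th percentile, the dashed line marks 10, the dotted line 4, and grey boxes are the libraries that chose the bins, while the red boxes, with medians of 8.37 for C/EBPα at 12 hpi, 17.7 for C/EBPβ at 48 hpi and 11.9 for PU.1 at 48 hpi, are libraries that the rule did not use.

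The 12 hpi library, which played no part in the choice, found many of the bins already bound. At 12 hpi the median C/EBPα value was 8.37, and 185 of the 378 bins (48.9%, interval 43.8% to 54.1%) held 10 or more, against 0.275% of all bins. A further 125 bins held more than 4 and less than 10 at 12 hpi, and 68 still held 4 or less. For comparison, 96.0% of 7079 bins with C/EBPα at 3, 24 and 48 hpi (called early and late) reached 10 at 12 hpi, as did 70.6% of 1484 bins with an intermediate highest early value (over 4 and under 10) and 13.5% of 7853 bins with 10 or more at 3 hpi and 4 or less at 24 and 48 hpi (called lost). The interval of the late-gained bins overlapped none of these. All of these groups were defined on C/EBPα before and after 12 hpi, so their order at 12 hpi is a description. With the rule lacking the 24 or the 48 hpi library the share at 12 hpi fell to 20.7% and 26.0%.

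The bins that were slowest in C/EBPα were not empty of the other factors late on. Of the 68 bins with 4 or less at 12 hpi, 66.2% (53.7% to 77.2%) held C/EBPβ at 48 hpi and 51.5% (39.0% to 63.8%) held PU.1. Among the 185 bins already at 10 by 12 hpi these shares were 69.7% and 56.8%, within the same intervals. An example of the slow kind lay far upstream of Id2, which encodes an inhibitor of helix-loop-helix factors (-297943 bp from its start, negative being upstream). Its C/EBPα values were 0, 0.401, 2.31, 1.54 and 2.70 up to 3 hpi, 1.67 at 12 hpi (0.0424 to 9.33), 21.1 at 24 hpi (12.1 to 34.2) and 25.1 at 48 hpi. The bin was picked for its low value at 12 hpi, and the later values are those of the rule.

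C/EBPβ was found at most of the late-gained bins by 48 hpi. No bin of the 378 held 10 or more reads of C/EBPβ at 0 hpi, which allows a share of up to 0.794%, and 1 did at 3 hpi. The share of all bins at 0, 3 and 24 hpi is not given here, so the low counts at 0 and 3 hpi were not compared with the genome. In the late-gained bins the share was 21.2% at 12 hpi, 42.9% at 24 hpi and 69.8% at 48 hpi (264 bins, 64.9% to 74.4%), against 0.24% of all bins at 48 hpi. The median over the 5 libraries was 2.33, 1.71, 3.44, 9.60 and 17.7 scaled reads. The medians at 0, 3 and 12 hpi each stood for 1 read, so they differ by library depth alone. In 216 bins (57.1%) C/EBPβ was 4 or less at 0 hpi and 10 or more at 48 hpi, which held for 0.138% of all bins. Of the 264 bins with C/EBPβ at 48 hpi, 66 first reached 10 at 12 hpi, 104 at 24 hpi and 93 at 48 hpi. The C/EBPβ library of 12 hpi was the smallest of all, and 3 reads made 10 there, so that 0.520% of all bins passed at that time point.

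Among the other groups, 92.2% of the early and late bins held C/EBPβ at 48 hpi, 64.9% of the intermediate bins and 11.6% of the lost ones. The early and late bins differed from the late-gained ones in when this happened, since 67.7% of them passed at 3 hpi, when 0.265% of the late-gained bins did. C/EBPα was also higher in the early and late bins (median 20.1 at 48 hpi against 13.8). Among bins whose mean late C/EBPα was 10 to 15, the share with C/EBPβ at 48 hpi was 55.5% (48.6% to 62.1%) for the late-gained and 82.3% (80.2% to 84.2%) for the early and late bins. At a mean of 20 or more the shares were 98.5% (92.1% to 100%) and 96.6% (96.0% to 97.1%), with overlapping intervals. Left out of the rule, the 24 hpi library took the C/EBPβ share of the bins chosen down to 35.2% and the 48 hpi library to 25.5%, and the C/EBPβ share was 92.6% with a late threshold of 15.

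**Figure D2:**
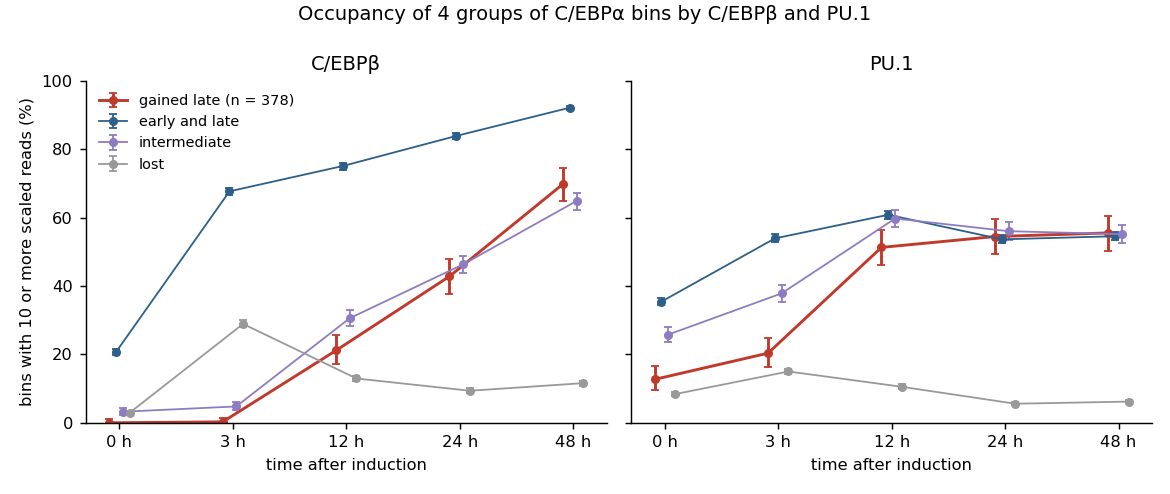
Share of bins with 10 or more reads of C/EBPβ (left) or PU.1 (right) by time after induction for the 378 bins gained late and for 3 other groups of C/EBPα bins, with 95% Clopper-Pearson intervals. In the late-gained bins C/EBPβ went from 0 at 0 hpi to 69.8% at 48 hpi and PU.1 from 12.7% to 55.6%, while in the lost bins C/EBPβ was at 11.6% and PU.1 at 6.20% at 48 hpi.

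Of the 6 sites with the most C/EBPβ at 48 hpi, those of B230120H23Rik and Blvra were also among the 10 with the most C/EBPα. The highest lay 76310 bp downstream of the start of Sipa1l2, between genes, where C/EBPβ measured 4.67, 5.13, 13.8, 35.2 and 104 (78.2 to 137) at 0, 3, 12, 24 and 48 hpi. C/EBPα in this bin was 11.7 at 12 hpi, 15.8 at 24 hpi and 23.9 at 48 hpi. The site was named for this value at 48 hpi, which is a description. In an intron of Usp47, a deubiquitinase, C/EBPβ went from 0 at 0 hpi to 24.1, 28.8 and 98.5 at 12, 24 and 48 hpi. The site just upstream of the start of Blvra, the biliverdin reductase gene, had 4.67 at 0 hpi and 96.5 at 48 hpi. In Ninj2 and in Gtf2h3, a subunit gene of the general factor TFIIH, the values at 48 hpi were 92.6 and 90.6. PU.1 at 48 hpi was 6.69 at Blvra and 12.4 to 15.3 at Sipa1l2, Usp47, Ninj2 and Gtf2h3.

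PU.1 was present at a minority of the bins before induction and at over 50% of them from 12 hpi on. At 0 hpi 48 bins (12.7%, 9.51% to 16.5%) held 10 or more reads of PU.1, against 0.389% of all bins. The share was 20.4% at 3 hpi, 51.3% at 12 hpi, 54.5% at 24 hpi and 55.6% (50.4% to 60.6%) at 48 hpi, when 0.463% of all bins passed. For 3, 12 and 24 hpi the PU.1 share of all bins is not given here. In 118 bins (31.2%) PU.1 was 4 or less at 0 hpi and 10 or more at 48 hpi, against 0.0805% of all bins. The early and late bins started higher, with 35.5% (34.3% to 36.6%) at 0 hpi, and at 48 hpi, with 54.6% (53.4% to 55.7%), lay within the interval of the late-gained bins. The intermediate bins went from 25.8% to 55.2%, and the lost bins from 8.39% to 6.20%. With the 24 or the 48 hpi library left out of the rule the PU.1 share at 48 hpi was 33.5% and 31.8%, and that at 0 hpi was 11.0% and 12.7%.

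By PU.1 the bins were divided at 10 scaled reads. At 0 hpi 48 bins held 10 or more. Another 167, called bins that gained PU.1, were under 10 at 0 hpi and at 10 or more at 48 hpi. The remaining 163 were under 10 at both times, and some of them held PU.1 in between. Of the 167, 118 were at 4 or less at 0 hpi, and the rest already held more than 4. Of the 48, 43 still held PU.1 at 48 hpi. In the 167 bins that gained PU.1, it first reached 10 at 3 hpi in 26, at 12 hpi in 93, at 24 hpi in 24 and at 48 hpi in 24. At 12 hpi C/EBPα and PU.1 both stood at 10 or more in 105 bins, PU.1 alone in 89, C/EBPα alone in 80 and neither in 104. At 48 hpi C/EBPβ and PU.1 were both at 10 or more in 153 bins, C/EBPβ alone in 111, PU.1 alone in 57 and neither in 57. These joint counts were not made over all bins. Whether the factors went together or in a given order more often here than elsewhere was not tested.

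The bins that PU.1 already held were poorer in C/EBPβ and in the C/EBP consensus. C/EBPβ at 48 hpi was found in 39.6% (25.8% to 54.7%) of the 48 bins with PU.1 at 0 hpi, in 80.8% (74.0% to 86.5%) of those that gained PU.1 and in 67.5% (59.7% to 74.6%) of those under 10 at 0 and 48 hpi. The C/EBP consensus was in 3 of the 48 (6.25%, 1.31% to 17.2%), in 29.3% (22.6% to 36.9%) of the bins that gained PU.1 and in 25.8% (19.2% to 33.2%) of those under 10 at both times. The PU.1 word GAGGAAGT was most frequent in the 48, with 33.3% (20.4% to 48.4%), 7.78% and 3.07%. The first of these intervals overlapped neither of the others in the case of C/EBPβ and of either word, and the 12 hpi share of C/EBPα had overlapping intervals (52.1%, 49.1% and 47.9%). The median C/EBPα at 48 hpi was 11.3, 15.1 and 13.8 in the same order.

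Alox5, the gene of 5-lipoxygenase, held a site of the first kind in an intron 1942 bp downstream of its start. PU.1 there measured 14.2 (6.80 to 26.1), 12.2, 16.8, 24.7 and 41.1 (29.7 to 55.3) at 0, 3, 12, 24 and 48 hpi. C/EBPα was at most 1.54 up to 3 hpi, then 6.70, 19.8 and 23.9, and C/EBPβ was 0 at 12 hpi, 12.8 at 24 hpi and 31.5 at 48 hpi. PU.1 was thus above 10 in this bin in all 5 libraries, while neither C/EBP factor reached 10 before 24 hpi. The largest value of PU.1 at 48 hpi among the named sites was upstream of Ctsd, the cathepsin D gene, at -10157 bp from its start. PU.1 there went from 8.51 (3.12 to 18.5) and 15.2 to 95.2, 136 and 159 (135 to 185), while C/EBPα went from 0.899 at 3 hpi to 21.8, 42.2 and 31.4, and the bin holds the PU.1 word. C/EBPβ in this bin was 35.2 at 24 hpi and 17.7 (8.11 to 33.7) at 48 hpi. The Ptpre site, in a gene for a receptor-type tyrosine phosphatase, was the reverse of it. PU.1 there stayed between 0 and 1.91 (0.231 to 6.90 at 48 hpi), while C/EBPα went from 0.899 at 3 hpi to 11.7, 36.9 and 60.3 and C/EBPβ from 0 at 0 hpi to 78.8 (56.3 to 107) at 48 hpi.

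**Figure D3:**
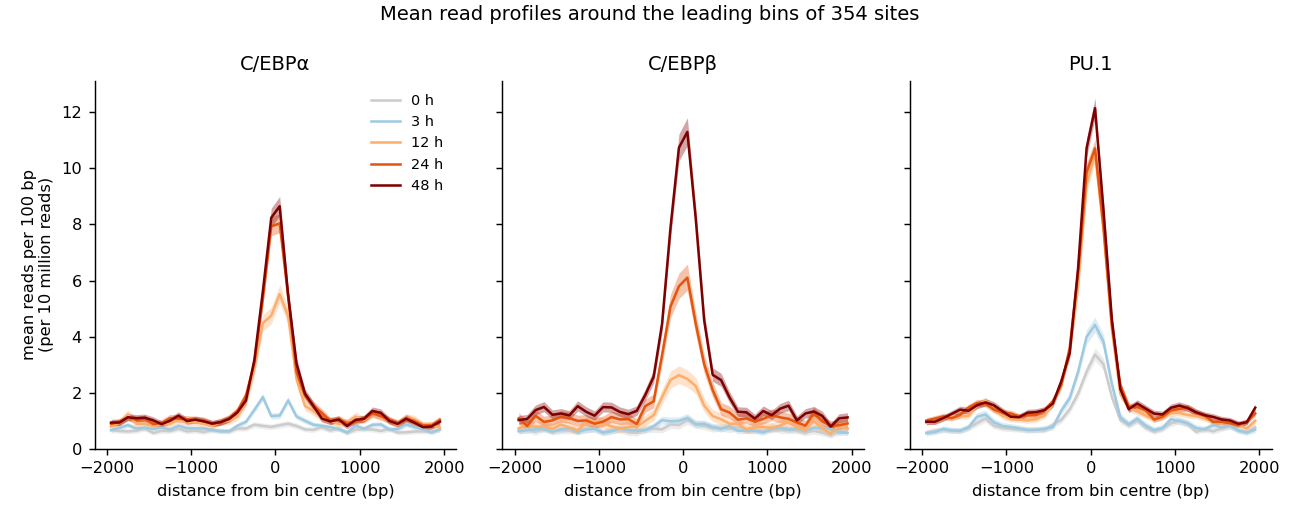
Mean scaled reads per 100 bp up to 2000 bp on either side of the leading bin's centre of the 354 sites, at 0, 3, 12, 24 and 48 hpi, with bands for the 95% Poisson interval of the summed reads. C/EBPβ and PU.1 peaked in the same place as C/EBPα, and the dip of C/EBPα at 3 hpi in the centre follows from the rule, which limits the bin itself to 4 reads.

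Averaged over the 354 sites, C/EBPβ and PU.1 were centred on the bins chosen for C/EBPα. C/EBPβ at 48 hpi reached 11.0 reads per 100 bp in the bin and 1.23 at 1000 to 2000 bp from its centre, 8.97 times as many. For PU.1 at 48 hpi these values were 11.4 and 1.26, a ratio of 9.11, and at 0 hpi 3.05 and 0.741, a ratio of 4.12. C/EBPα at 12 hpi had 5.13 in the bin and 0.959 at a distance. At 3 hpi it had 1.18 in the bin, 1.53 in the 200 bp on either side and 0.744 at a distance, so that some reads lay beside bins that the rule required to be low.

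With all levels of late C/EBPα pooled, the late-gained bins held the C/EBP consensus less often, and the AP-1 word more often, than the early and late bins. Words were searched on both strands and had to lie inside the bin. TTGCNNAA was in 94 of the 378 bins (24.9%, 20.6% to 29.5%), against 9.28% of all bins without unknown bases and 33.8% (32.7% to 34.9%) of the early and late bins. The intermediate bins held it in 296 of 1483 with known sequence, with an interval of 17.95% to 22.1% that overlaps that of the late-gained bins, and the lost bins in 28.2% (27.2% to 29.2%). TGACTCA was in 65 (17.2%, 13.5% to 21.4%), against 3.14% of all bins, 8.80% (8.15% to 9.49%) of the early and late bins and 4.04% of the lost bins. For the AP-1 word the intermediate bins lay between, at 12.3% (10.7% to 14.1%), with an interval that overlaps that of the late-gained bins. In the middle range of GC content of the late-gained bins (46% to 54%), 3.60% of all bins held the AP-1 word and 6.97% the C/EBP consensus. Both words were present in 14 bins, among them those of Sipa1l2 and Ninj2.

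The AP-1 word was also compared at matched levels of late C/EBPα. Among bins with a mean late C/EBPα of 10 to 15, it was in 16.8% (12.1% to 22.4%) of the late-gained, 9.28% (7.37% to 11.5%) of the intermediate and 7.36% (6.09% to 8.81%) of the early and late bins. At 15 to 20 it was in 18.9% (11.4% to 28.5%) of the late-gained, 12.4% (9.25% to 16.2%) of the intermediate and 8.34% (6.97% to 9.88%) of the early and late bins. At 20 or more it was in 16.2% (8.36% to 27.1%), 20.3% and 9.48% (8.61% to 10.4%), and the interval of the late-gained bins then overlapped that of the early and late bins. The C/EBP consensus was in 17.7% (12.9% to 23.4%) of the late-gained, 15.1% (12.7% to 17.8%) of the intermediate and 27.4% (25.2% to 29.8%) of the early and late bins at 10 to 15. At 15 to 20 it was in 34.4% (24.74% to 45.2%), 20.3% (16.3% to 24.73%) and 29.3% (27.0% to 31.7%). At 20 or more it was in 35.3% (24.1% to 47.8%), 32.5% (27.2% to 38.0%) and 37.7% (36.2% to 39.2%). For this word the late-gained interval was apart from that of the early and late bins at the lowest level alone, and from that of the intermediate bins at 15 to 20 alone, there by a narrow margin. Without the 48 hpi library in the rule the AP-1 word was in 8.11% of the bins chosen and without that of 24 hpi in 12.3%, and the C/EBP consensus in 12.3% and 13.0%.

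By C/EBPα at 12 hpi, the AP-1 word was in 22.1% (12.9% to 33.8%) of the 68 bins with 4 or less C/EBPα at 12 hpi, in 22.4% (15.4% to 30.7%) of the 125 with more than 4 and less than 10, and in 11.9% (7.60% to 17.4%) of the 185 with 10 or more, with overlapping intervals. It was in 37 of the 167 bins that gained PU.1 (22.2%, 16.1% to 29.2%), in 25 of the 163 with PU.1 under 10 at 0 and 48 hpi (15.3%, 10.2% to 21.8%) and in 3 of the 48 with PU.1 at 0 hpi (6.25%, 1.31% to 17.2%), again with overlapping intervals. C/EBPβ at 48 hpi was present in 14 of the 14 bins with both words (76.8% to 100%) and in 85.0% (75.3% to 92.0%) of the 80 with the C/EBP consensus alone. It was in 72.5% (58.3% to 84.1%) of the 51 with the AP-1 word alone and in 62.2% (55.7% to 68.5%) of the 233 with neither. The intervals of the bins with either or both words overlapped.

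For the PU.1, RUNX and EBF1 words the intervals of the late-gained and of the early and late bins overlapped. For the ATF-C/EBP composite word TGATGCAA they were apart, with 1.06% (0.289% to 2.69%) and 3.86% (3.42% to 4.33%), against 0.617% of all bins. The intermediate bins held this word in 1.48% (0.932% to 2.24%), an interval that overlaps that of the late-gained bins. At each matched level of late C/EBPα the late-gained and the early and late intervals overlapped for it. The PU.1 word was in 8.99% (6.31% to 12.3%), against 1.20% of all bins and 7.77% of the early and late bins. The RUNX word TGTGGTT was in 7.67% (5.20% to 10.8%), against 4.73% and 9.41%. The EBF1 word TCCCNNGGG was in 2.65% (1.28% to 4.81%), against 1.87% of all bins, 3.11% of all bins in the middle GC range and 5.06% (4.56% to 5.59%) of the early and late bins, while the lost bins held it in 8.81% (8.19% to 9.46%). The C/EBP palindrome TTGCGCAA was in none of the 378, which allows up to 0.794%. It was in 0.0162% of all bins, 0.337% of the intermediate bins and 1.79% of the early and late bins. At each matched level of late C/EBPα the Clopper-Pearson intervals of the late-gained and the early and late bins overlapped for the palindrome. The IRF word GAAANNGAA, the MAF word TGCTGAC and the E-box CACGTG were in 7.94%, 2.38% and 3.97%, against 7.83%, 2.73% and 1.99% of all bins, with intervals that overlapped those of the early and late bins. AP-1, RUNX and EBF1 were not measured in these libraries, and a word is a match of letters only.

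**Figure D4:**
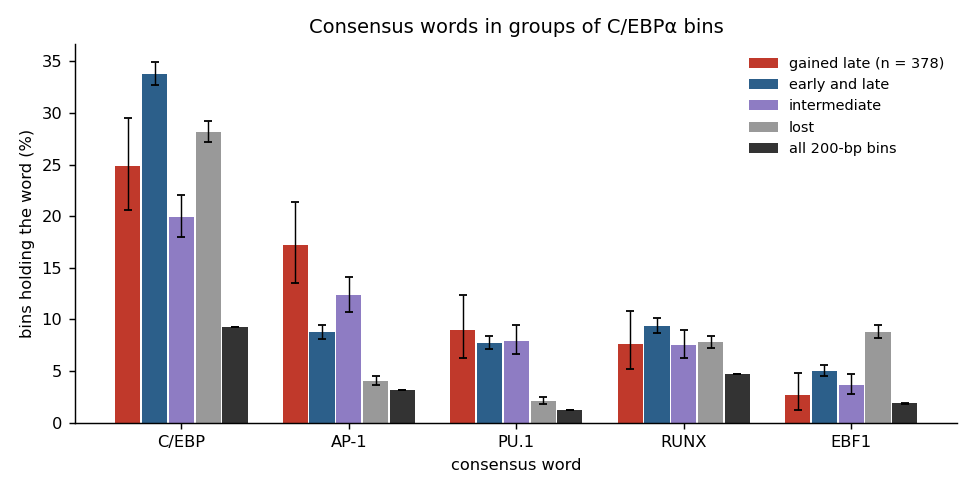
Share of bins that hold each consensus word, for the 378 bins gained late, the 3 other groups of C/EBPα bins and all 200-bp bins of chromosomes 1 to 19, with 95% Clopper-Pearson intervals. With all levels of late C/EBPα pooled, the AP-1 word stood at 17.2% in the late-gained and 8.80% in the early and late bins, and the C/EBP consensus at 24.9% and 33.8%.

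Within 100 bp windows the words were concentrated at the sites. In the 200 bp of the leading bins a window of 100 bp held the AP-1 word in 9.32% of the 354 sites on average, and in 2.09% at 500 to 1000 bp from the centre, 4.46 times as often. For the C/EBP consensus the values were 13.4% and 3.87% and for the PU.1 word 4.10% and 0.734%. The ratios were 3.47 and 5.58. In the early and late bins the ratio was 2.35 for the AP-1 word, 4.29 for the C/EBP consensus and 5.72 for the PU.1 word. There all 7079 bins were used, without joining those that touch or choosing a leading bin, so the ratios come from unlike sets.

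Positions were taken relative to protein-coding genes. The median distance to the closest TSS of such a gene (GENCODE vM1) was 14969 bp, 37 bins (9.79%) lay within 1000 bp of a TSS, 21 in exons, 140 in introns and 180 between genes. Among the early and late bins 13.0% and among the intermediate bins 24.4% lay within 1000 bp of a TSS. Exons, introns and the space between genes had 5.56%, 37.0% and 47.6% of the late-gained bins. For the early and late bins these shares were 3.48%, 40.7% and 42.8%. Positions were not counted over all bins, so a difference from the genome was not tested. For the 37 bins at gene starts the intervals lay apart from those in introns and between genes for C/EBPβ, PU.1 and the C/EBP consensus. They overlapped for C/EBPα at 12 hpi and for the AP-1 word. Late C/EBPα was not matched in this comparison, and no test was made. C/EBPβ at 48 hpi was in 27.0% of them (13.8% to 44.1%), against 77.1% (69.3% to 83.8%) of those in introns and 72.2% (65.1% to 78.6%) of those between genes, and the C/EBP consensus in 2 of the 37 (5.41%, 0.661% to 18.2%), against 27.1% and 27.2%, each with an interval above 18.2%. PU.1 at 48 hpi was in 29.7% (15.9% to 47.0%) of the 37, against 60.0% (51.4% to 68.2%) and 58.9% (51.3% to 66.2%). C/EBPα at 12 hpi was in 48.6% (31.9% to 65.6%) of the 37, 49.3% of those in introns and 50.0% of those between genes, and the AP-1 word in 10.8% (3.03% to 25.4%), 30 of 140 and 27 of 180. Their median GC content was 62.0%, against 50.0% in introns and 49.0% between genes. Whether GC content played a part in the C/EBPα reads of the 37 was not tested.

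The 354 sites had 312 closest genes, which are 1.46% of the 21418 protein-coding genes, and the closest gene need not be the one a site acts on. For 58 bins it was over 100 kb away. Of the 312 genes 159 (51.0%) were also closest to an early and late bin, as were 14.7% of all genes. Of the macrophage gene lists, 8 of 62 pattern recognition and phagocytic receptors were the closest gene of a late-gained bin (Axl, C5ar1, Cd300lb, Lilrb4, Msr1, Ptafr, Siglec1 and Sirpa), 4 of 30 integrins and adhesion genes (Cd44, Itgb2, Plaur and Thbs1), 5 of 47 lipid, iron, glucose and oxidase genes (Alox5, Alox5ap, Hk2, Pfkfb3 and Plin2) and 5 of 67 cytokines, chemokines and their receptors (Ccl6, Cx3cr1, Cxcl1, Tnfsf14 and Vegfa). The myeloid transcription factors had 2 of 45 (Id2 and Rara) and the granule and lysosome genes 2 of 51 (Ctsd and Psap). The B lineage list had 1 of 48 (Pik3cd) and the list of liver and fat genes of C/EBP factors 0 of 42. Of the same lists, from 37.1% (the receptors) to 70.2% (the lipid, iron, glucose and oxidase genes) of the 6 macrophage lists were closest to an early and late bin, with 68.9% of the myeloid transcription factors. For the B lineage list this was 43.8%, and for the liver and fat list 8 of 42.

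Among the receptors, the site in an intron of Sirpa, whose product gives macrophages an inhibitory signal on meeting CD47, had C/EBPα of at most 2.70 up to 3 hpi and 13.4, 23.7 and 21.4 at 12, 24 and 48 hpi. C/EBPβ there was 3.44, 12.8 and 23.6 at the same times and PU.1 at most 7.64. Upstream of Siglec1, the sialic acid receptor sialoadhesin, C/EBPα was 6.70, 15.8 and 27.6 and PU.1 14.9, 8.81 and 18.2. At 44476 bp from the start of Lilrb4, an inhibitory receptor gene, C/EBPα was 3.35, 15.8 and 13.8 and C/EBPβ 10.3, 19.2 and 13.8. All 3 sites were below 3 scaled reads of C/EBPα up to 3 hpi and none held PU.1 of 10 or more at 0 hpi.

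Of the adhesion genes, Itgb2 encodes the β chain shared by the leukocyte integrins, Mac-1 among them. Its site, in an intron 20585 bp from the start, had C/EBPα of 3.59 at 3 hpi and 13.4, 35.6 and 41.5 at 12, 24 and 48 hpi, and C/EBPβ of 10.3, 19.2 and 67.0, while PU.1 was at most 7.47. A bin within 1000 bp of this site held 9.88 reads of C/EBPα at an early time point, just under 10. Plaur, the urokinase receptor gene, had a weaker site with C/EBPα of 8.37, 17.1 and 13.8. The site nearest to Thbs1 (thrombospondin 1), with C/EBPα of 8.37, 21.1 and 12.6, lay at -99512 bp. In the metabolic list, the site upstream of Hk2, the hexokinase 2 gene, had C/EBPα of 23.4 and 26.4 at 12 and 24 hpi and 12.6 at 48 hpi, and C/EBPβ of 20.7, 38.4 and 45.3. At the start of Plin2, a lipid droplet protein gene, C/EBPα was 10.0, 15.8 and 11.3, just above the threshold at 48 hpi. C/EBPα at 48 hpi was above 24 hpi in Itgb2 and below it at the other 4. The 24 and 48 hpi intervals overlapped at every one of these sites, among them Itgb2 (23.5 to 51.8 and 28.5 to 58.2) and Hk2 (16.1 to 40.7 and 6.03 to 23.1).

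Cx3cr1, the fractalkine receptor gene of monocytes and macrophages, held 4 sites, among them the one with the highest lower late value of C/EBPα. At that site, in an intron, C/EBPα measured 2.26, 2.81, 1.54, 2.05 and 2.70 up to 3 hpi and 25.1 (14.1 to 41.4), 60.6 (44.4 to 80.9) and 69.1 at 12, 24 and 48 hpi. C/EBPβ measured 0, 1.71, 17.2, 48.0 and 82.7 (59.6 to 112), and PU.1 4.25 (0.877 to 12.4), 9.12, 29.9, 30.0 and 49.7 (37.1 to 65.2). C/EBPβ and PU.1, which the rule did not use, were highest at 48 hpi in this bin. The other sites lay 13500 and 18700 bp downstream of the start and 100 bp upstream of it, with 25.1, 22.6 and 16.3 of C/EBPα at 48 hpi, and PU.1 was at most 6.69 in these 3. The sites of 1 gene thus differed in PU.1.

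Of the other genes with several sites, Id2 was closest to 6, spread from -112943 to -396943 bp from its start. One of these held PU.1 of 41.1 at 0 hpi and 17.2 at 48 hpi, and C/EBPβ at 48 hpi over the 6 ranged from 7.88 to 41.4. Gm826 was closest to 5 sites, all between genes and 87852 to 243052 bp from its start. There C/EBPβ at 48 hpi was 23.6 to 57.1 and PU.1 at 0 hpi at most 2.84. Cdh1, the E-cadherin gene, had 3 intronic sites close together, at 7821, 8221 and 9021 bp downstream of its start. The highest had C/EBPα of 33.5, 63.3 and 54.0 at 12, 24 and 48 hpi, C/EBPβ of 45.3 and PU.1 of 64.0 at 48 hpi. Within 1000 bp of each Cdh1 site a bin held 9.88 reads of C/EBPα at an early time point, just under 10. Pid1 had 3 sites, and the one at -65880 bp was held by PU.1 at 49.6 (34.6 to 69.0) before induction and at 142 at 48 hpi. A bin within 1000 bp of that Pid1 site also held 9.88 reads of C/EBPα at an early time point. The 3 Pid1 sites had C/EBPα of 31.4, 15.1 and 13.8 at 48 hpi, and C/EBPβ of 61.1, 27.6 and 17.7 in the same order. The first of them lay in an intron of another gene, Dner, at -122280 bp from the start of Pid1.

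The 10 sites with the most C/EBPα also included those near B230120H23Rik, in Txndc16 and Phactr2, and near Rnf149. Near B230120H23Rik C/EBPα was 30.1, 59.3 and 81.7 at 12, 24 and 48 hpi, C/EBPβ 94.6 and PU.1 44.0 at 48 hpi. In Txndc16 C/EBPα was 20.1, 39.5 and 49.0 at these times, and PU.1 went up to 36.4 at 12 hpi and back to 9.55 at 48 hpi. Near Rnf149, where the bin holds the AP-1 word and no C/EBP consensus, C/EBPα was 16.7, 33.0 and 55.3, C/EBPβ 67.0 and PU.1 78.3 at 48 hpi. In Phactr2 C/EBPα was 16.7, 34.3 and 35.2, C/EBPβ 29.6 and PU.1 27.7 at 48 hpi. PU.1 thus ended at 10 or more in 6 of the 10 sites, and C/EBPβ in 10 of 10.

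**Figure D5:**
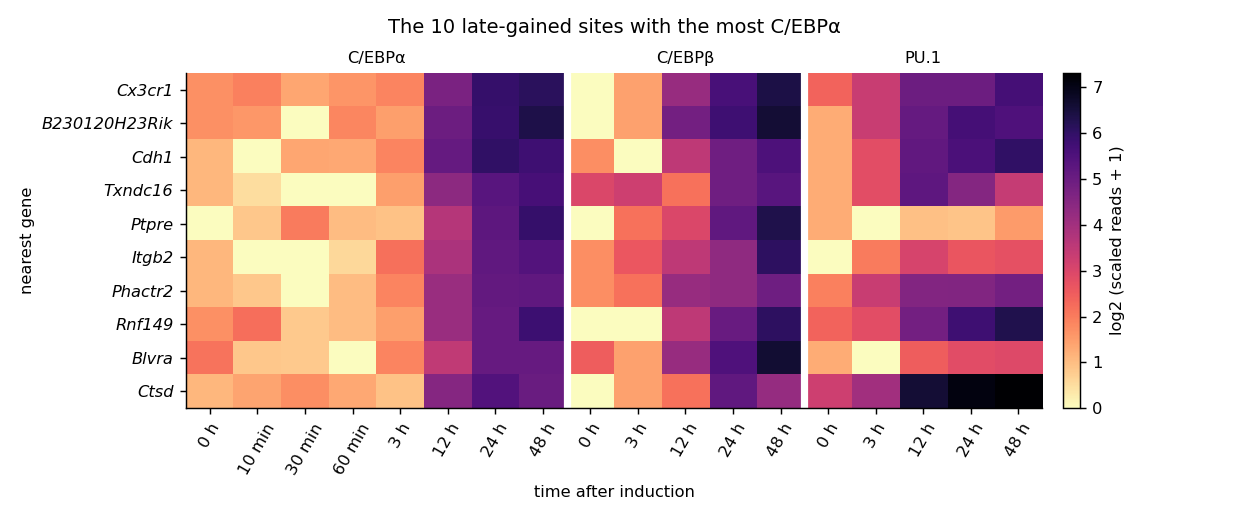
Reads per bin on a log2 (scaled reads + 1) colour scale for the 10 late-gained sites with the most C/EBPα (rows, by closest gene) in the 18 libraries (columns, by factor and time). All 10 rows darken between 3 and 12 hpi for C/EBPα, and the rows of Ptpre, Itgb2 and Blvra stay light for PU.1, at 1.91, 5.73 and 6.69 at 48 hpi.

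Other named sites had C/EBPα close to the threshold. The site in an intron of Rara, a retinoic acid receptor gene, had C/EBPα of 15.1, 10.5 and 12.6 at 12, 24 and 48 hpi. C/EBPβ there was 1.97 (0.0499 to 11.0) at 48 hpi, and PU.1 peaked at 74.7 (59.2 to 92.9) at 12 hpi and was 13.4 (7.31 to 22.4) at 48 hpi. The site upstream of Psap, the prosaposin gene, had C/EBPα of 18.4, 14.5 and 13.8 and C/EBPβ of 9.85 at 48 hpi, and a bin within 1000 bp of it held up to 25.2 reads of C/EBPα at an early time point. The chemokine genes had such sites. Near Ccl6 C/EBPα was 11.7, 13.2 and 12.6, and near Cxcl1 6.70, 10.5 and 23.9. The site assigned to Pik3cd, the PI3-kinase δ gene on the B lineage list, lay in an intron of its neighbour Clstn1 and had C/EBPα of 13.4, 10.5 and 16.3, C/EBPβ of 45.3 and PU.1 of 31.5 at 48 hpi.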

How the data were processed

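Per the labels, C10 cells were cross-linked at the times given and ChIP-seq was done for C/EBPα, C/EBPβ and PU.1. The authors aligned the reads to mm9 without mismatches (Bowtie or ELAND, versions not given in the sources used here), kept uniquely aligned reads, and deposited 1 line per read with its position and strand, without normalization. Identical reads were removed by the authors, yet 2.51% of the reads of the 3 hpi C/EBPα library repeated a position and strand. Peak lists and control libraries were not used here. From these positions, 1 read per position and strand was kept, 5′ ends were moved 75 bp inward, and reads were counted in 200-bp bins and scaled to 10000000 reads of the library. Sequences and genes were those of NCBIM37 (mm9) and GENCODE vM1. Each bin was given the protein-coding gene with the closest TSS. Analyses used Python 3.11.15, numpy 2.4.6 and scipy, and the selection rule and the word search were tested on simulated data. The members, the gene lists and the rule for named sites were chosen with earlier results of these data known. That rule takes the 10 sites with the highest lower late value, the 6 with the most C/EBPβ at 48 hpi, up to 3 genes per list and the 5 genes closest to the most sites. Myc was closest to 3 sites, as were Cdh1 and Pid1, and was not named, its highest lower late value being 23.7. The labels give 100 nM β-Est, and the study's methods another concentration.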

Additional observations from a re-analysis of the deposited data

How the results depend on the processing

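No paired analysis was possible because each factor and time point is 1 library and the labels give no replicate numbers. The bins gained late numbered 378, and the number was 95 with a late threshold of 15, 41 with an early threshold of 2, and 385 to 1779 when the rule lacked 1 of its 7 libraries. Under these thresholds the share with C/EBPα at 12 hpi was 70.5% and 34.1%, with C/EBPβ at 48 hpi 92.6% and 75.6%, with the C/EBP consensus 34.7% and 39.0%, and the AP-1 word was in 26.8% with the early threshold of 2. With the late threshold of 15, PU.1 was in 8.42% at 0 hpi and 67.4% at 48 hpi. Counting 5 reads as bound gave 82.0% for C/EBPα at 12 hpi, 88.6% for C/EBPβ, 23.3% for PU.1 at 0 hpi and 73.5% at 48 hpi, and adding the neighbouring bins (600 bp) 83.6%, 91.0%, 25.9% and 81.7%. PU.1 at 0 hpi was 8.85% without the shift, and C/EBPα at 12 hpi 40.2% when scaled to reads of bins under 10. With 100 bp searched on either side the C/EBP consensus was in 36.2% and the AP-1 word in 27.5%. Within the bin, the palindrome alone was in 0%. Over the rules that lacked 1 library, the shares ranged from 20.7% to 66.8% for C/EBPα at 12 hpi, 25.5% to 78.1% for C/EBPβ at 48 hpi, 11.0% to 14.9% and 31.8% to 56.1% for PU.1 at 0 and 48 hpi, 12.3% to 26.3% for the C/EBP consensus and 8.11% to 17.7% for the AP-1 word. The alternatives for the AP-1 word and the rule without the 3 libraries of another sequencer were added after the data were seen. The other alternatives moved counts by less than 1.5 times and kept shares inside the 95% interval of the value reported. Depth limits single bins: 10 scaled reads at 48 hpi stand for 8 reads of C/EBPα, with an interval of 4.34 to 19.8.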
